A study of Rattus norvegicus with 12 samples.

Results

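Phospholipase D1 (Pld1) and N-acyl phosphatidylethanolamine phospholipase D (Napepld) were followed by a single mRNA probe each across rat kidneys of 4 strains. The members were chosen by probe, A_44_P338970 for Pld1 and A_44_P451930 for Napepld, among the 62 probes with a transcript accession on an array whose 14227 non-control probes otherwise read mostly circular RNAs (14145 circRNA probes). These are 2 of the 62, and both passed the filter on dim probes that 55 of them passed, Pld1 only through WKY and Napepld through R, SHR and WKY. Each array carried 10 spots of either probe. The kidneys came from male rats killed at 57 days of age, 3 per strain and 1 array per rat: the Dahl salt-sensitive rat (S), the Dahl salt-resistant rat (R), the spontaneously hypertensive rat (SHR) and the Wistar Kyoto rat (WKY). S and SHR are hypertension models, and R and WKY are the strains usually set beside them. All rats were weaned at 28 to 30 days onto chow with 0.3% NaCl, so no rat had a high-salt challenge, and the colony of each strain is not given in the sources used here. The labels number the rats of a strain as separate animals.

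Every RNA sample was digested with RNase R, an exonuclease that degrades linear RNA, before random-primed Cy3 labelling. The probe signals below are therefore levels of RNA that came through this digestion and not levels of untreated mRNA. Whole kidney was used, so fewer cells of a type and less RNA per cell cannot be told apart.

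Both enzymes cut membrane phospholipids on the head-group side of the phosphate, yet they belong to unrelated protein families. Pld1 hydrolyses phosphatidylcholine to phosphatidic acid and choline, is switched on by Arf proteins and by protein kinase C, and is known for its part in vesicle traffic and exocytosis. Napepld is a zinc-dependent hydrolase of the metallo-beta-lactamase fold that releases N-acylethanolamines, among them the endocannabinoid anandamide and the anti-inflammatory lipid palmitoylethanolamide. Anandamide is known to act on renal vessels and on tubular salt transport.

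The upstream sequences of the genes are shown because they are the regulatory sequence at hand for the members, and they differ widely in base composition. Each is the 250 bases before the annotated start in RefSeq (build GRCr8, reference rat), plus strand, at chr2:112821926-112822175 for Pld1 and chr4:14253010-14253259 for Napepld. Capitals mark the GC-box letters GGGCGG on either strand, and the TATA-box letters TATAAA were searched on both strands too.
Pld1: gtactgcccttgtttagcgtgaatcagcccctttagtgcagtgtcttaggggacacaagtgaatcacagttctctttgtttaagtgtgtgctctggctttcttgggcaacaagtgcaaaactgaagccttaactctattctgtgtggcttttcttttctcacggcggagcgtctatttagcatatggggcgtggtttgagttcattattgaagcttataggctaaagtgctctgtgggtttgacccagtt
Napepld: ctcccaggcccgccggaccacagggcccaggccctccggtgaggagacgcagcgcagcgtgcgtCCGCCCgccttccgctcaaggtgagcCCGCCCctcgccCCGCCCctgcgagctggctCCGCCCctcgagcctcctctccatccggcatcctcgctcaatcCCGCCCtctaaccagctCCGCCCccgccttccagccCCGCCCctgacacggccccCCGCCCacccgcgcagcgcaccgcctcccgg
The Napepld window is 77.2% G and C, holds 29 CpG dinucleotides and matches the GC-box letters 8 times. The Pld1 window is 45.2% G and C, holds 5 CpG dinucleotides and has no match. Over 33469 windows of this length in the RefSeq table the median is 51.2% G and C with 5 CpG, 30.5% hold the GC-box letters and 12.9% the TATA-box letters, which neither member has. These are letters of the reference genome, and no strain difference in them was read by the arrays.

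Levels are given as the mean log2 signal of the spots minus the 75th percentile of the circRNA probes of the same array, so a negative value lies below that percentile and a difference of 1 is a doubling of signal. A probe counted as well above background on an array where more than 50% of its spots without an outlier flag carried the scanner software's flag for it. Spots of 1 array are repeat readings of 1 labelled sample and were averaged. The number of arrays, 3 a strain, limits the precision.

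The arrays differed in their general signal in ways that touch both probes. The 75th percentile of the circRNA probes lay between 6.22 (S rat 1) and 8.15 (S rat 2) log2 units, and 70.3% (S rat 1) to 91.1% (R rat 1) of circRNA probes were well above background. By the scan date in the array headers the arrays fell into 2 groups, which are taken as slides here. The first (slide 1) held every S and R array with WKY rats 1 and 2. The other (slide 2) held WKY rat 3 beside the SHR arrays. The median of the other 53 tested mRNA probes, on the same scale, was -2.45 to -2.19 in S, -2.18 to -1.94 in R and -1.35 to -0.08 in WKY, while SHR rats 1 and 3 stood at -0.75 and -0.87 and SHR rat 2 at -2.19. SHR rat 2 thus lay with S and R in this measure, apart from the other SHR rats. Of 33 cell type markers of kidney and blood, Cyp2e1 (proximal tubule) and Nlrp3 (leukocytes) have a named probe among the 62, of which 23 have no gene name. Cyp2e1 was well above background on all 12 arrays, with a mean of 0.96 ± 0.64 (SD, n = 3) for WKY and 0.40 ± 2.01 for SHR against -0.98 ± 0.30 for R and -1.38 ± 0.11 for S, and its part in the results below was not tested. Nlrp3 was well above background on 10 arrays, with strain means of -4.09 to -3.80. These are too few markers to check the tissue.

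Pld1 was well above background in WKY and in 2 of 3 SHR kidneys, and on no S or R array. In WKY its level was -3.32, -1.68 and -2.52 in rats 1 to 3, with all spots without an outlier flag well above background. In SHR it was -2.50, -5.54 and -3.02. SHR rats 1 and 3 lay within the range of WKY, and SHR rat 2 lay near S and R, with 1 of 10 spots well above background. In S the signal was -5.08, -5.73 and -6.0, and in R it was -5.69, -6.03 and -6.08. R rat 1 had 1 of 10 spots well above background and the other S and R arrays had 0 of 10, so these values are bounds and have no order among themselves. The strain means were -2.51 ± 0.82 (SD, n = 3) in WKY, -3.69 ± 1.63 in SHR, -5.60 ± 0.47 in S and -5.93 ± 0.21 in R.

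**Figure D1:**
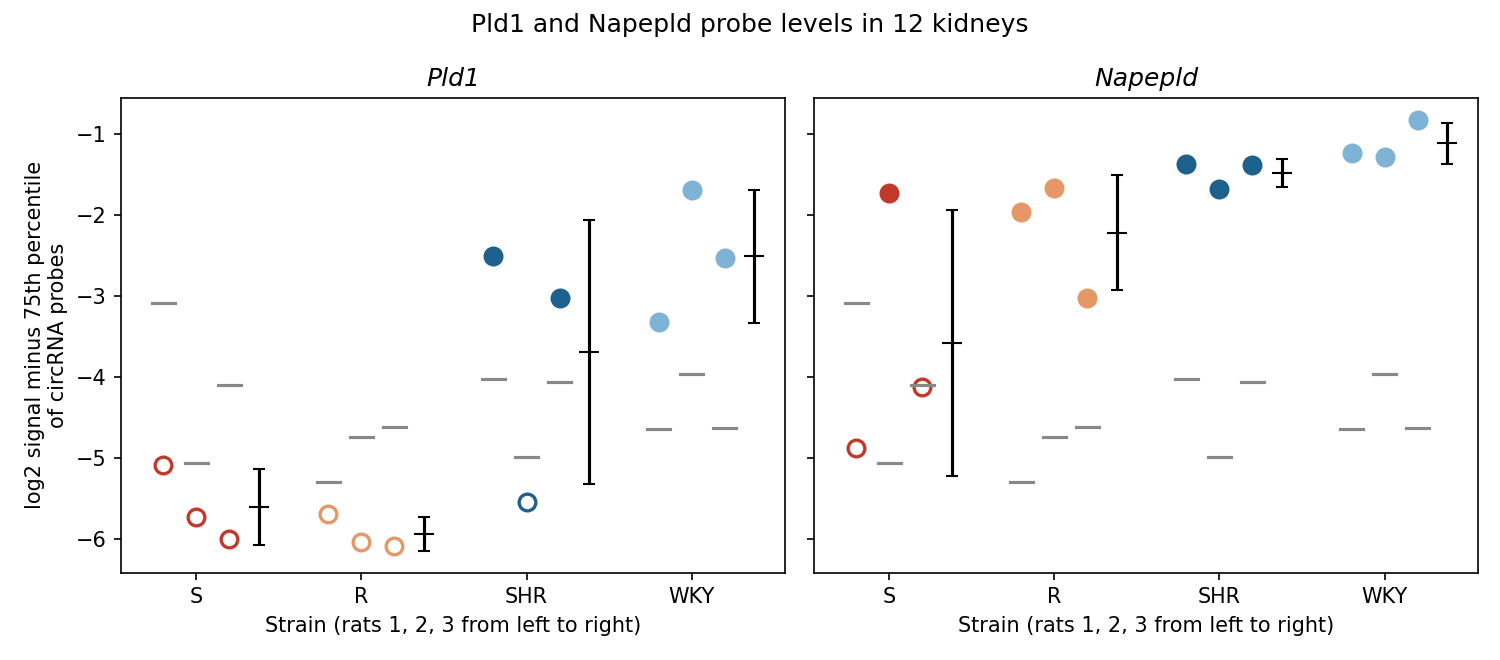
Level of each probe (y axis, log2 signal minus the 75th percentile of circRNA probes) in each rat by strain (x axis). Filled circles are arrays where the probe was well above background, and open circles are not. Short grey lines give the lowest signal of any single spot well above background on that array, and black bars are strain mean ± SD (n = 3). Pld1 is filled in WKY and in SHR rats 1 and 3, while Napepld is open only in S rats 1 and 3.

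Napepld was read on 10 of 12 arrays, with the exceptions of S rats 1 and 3, the arrays with the fewest mRNA probes well above background. In WKY its level was -1.23, -1.27 and -0.82, and in SHR -1.36, -1.68 and -1.38. These kidneys lay close together, between -1.68 and -0.82. In R it was -1.96, -1.67 and -3.02, with R rat 3 below the other R rats and all of its spots well above background. In S it was -4.87, -1.72 and -4.12. S rat 2 lay at the level of R rats 1 and 2, and S rat 1 had no spot well above background. On S rat 3, 4 of 8 spots without an outlier flag were well above background, and 6 of all 10, so that its standing depended on the flagged spots. Strain means were -1.11 ± 0.25 (SD, n = 3) in WKY, -1.48 ± 0.18 in SHR, -2.21 ± 0.71 in R and -3.57 ± 1.64 in S.

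Where a probe was well above background its spots lay close together, and the spread between rats of a strain was mostly wider. For Napepld the SD over spots was 0.045 to 0.15 log2 units on the 10 arrays where it was well above background, and for Pld1 0.066 to 0.14 on its 5 arrays. On the 7 arrays where Pld1 was not well above background the SD over spots was 0.33 to 0.61. The mean processed intensity of Pld1 was 16.1 to 44.2 on the 5 arrays and 2.30 to 6.02 on the 7. For Napepld it was 30.6 to 130 on the 10 arrays, 2.74 on S rat 1 and 8.75 on S rat 3. No spot of either probe was saturated.

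**Figure D2:**
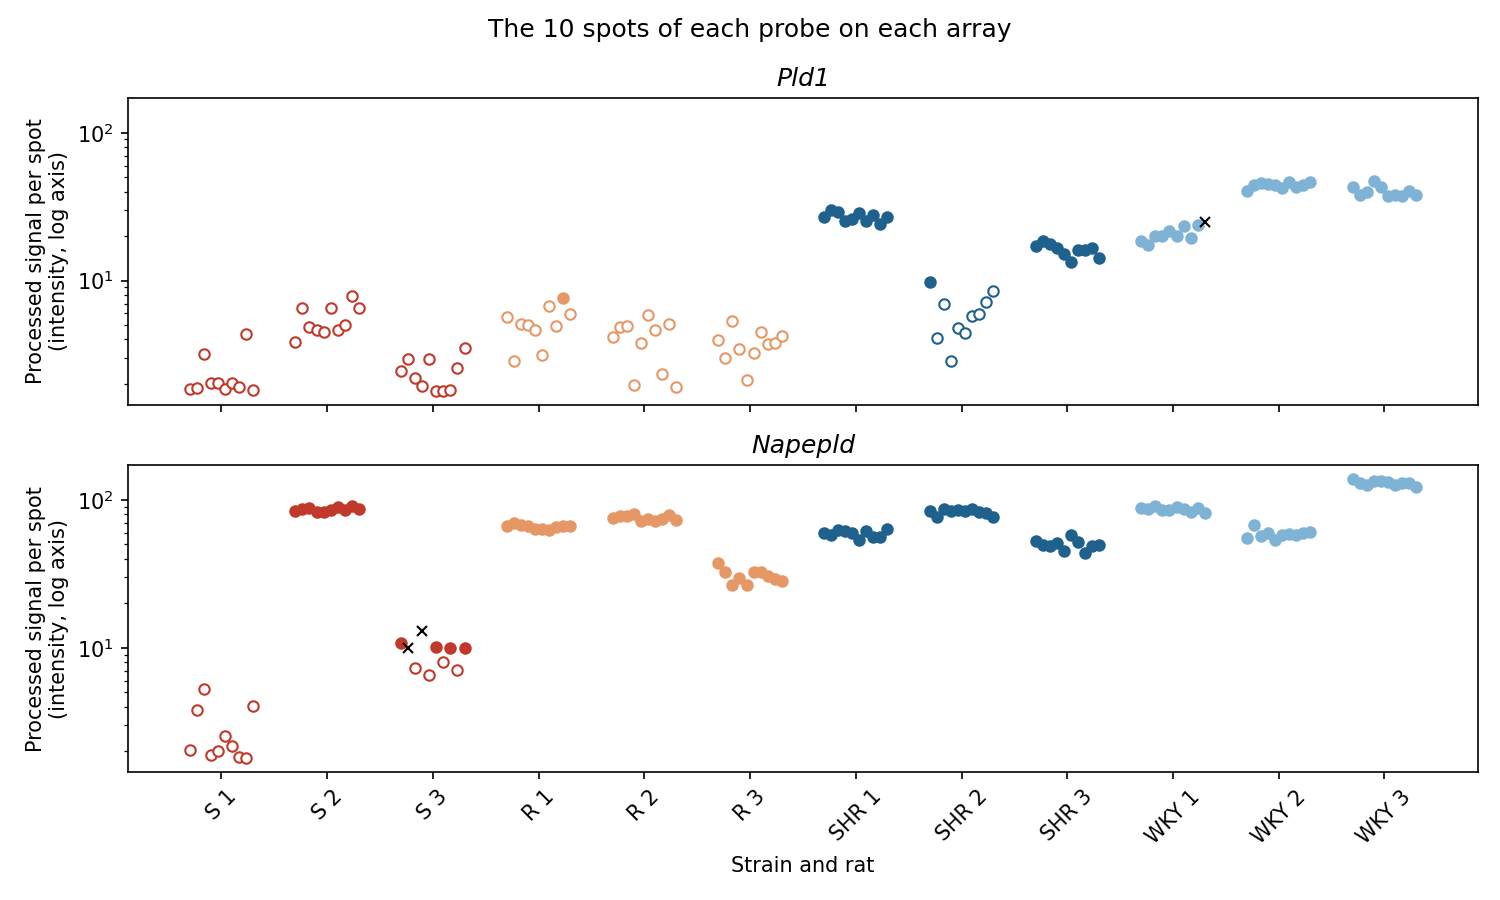
Processed intensity of each of the 10 spots (y axis, log axis) on each array (x axis, strain and rat), with Pld1 above and Napepld below. Filled circles are spots well above background, open circles are not, and crosses are spots with an outlier flag, 1 for Pld1 (WKY rat 1) and 2 for Napepld (S rat 3). Within an array the spots lie close together where the probe is well above background.

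The comparison of the normotensive strains, R vs WKY, gave the largest Pld1 difference of the 4 strain comparisons that were fitted. On the scale of the circRNA percentile the Pld1 signal was lower in R than in WKY by an approximate bound of 5.17-fold. This is a bound because no R array was well above background and all 3 WKY arrays were. Like the fold bounds below, it holds for this scaling and background subtraction only. The fitted log2 differences, which are not bounds, were -2.10 when scaled to the mRNA median and -0.87 with normexp. Both were smaller than the fitted difference below, and no bound was computed in either setting. The bound raises each R value to the lowest signal of any single spot well above background on its array, which gives -4.88 against -2.51 in WKY. A spot without that flag can be brighter than this level, as for Pld1 on R rat 1, so the bound is not a strict limit. The fitted log2 difference was -3.43 (SE 0.71, limma with Benjamini-Hochberg adjustment over 55 probes, adjusted p = 0.0126), with every R rat below every WKY rat. Of the 55 mRNA probes tested, 56.4% were called lower in R and 67.3% had every R rat below every WKY rat, so a lower value in R was the common state of these probes. The median log2 difference over all 55 was -1.75, with 45 below 0. Pld1 passed the filter on dim probes only through WKY, the strain where it was high.

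Slide, scaling and single arrays were then set beside that difference. Within slide 1, which held all R rats and WKY rats 1 and 2, it was -3.43 (SE 0.54, limma adjusted p = 0.00548). Scaled to the median of the mRNA probes of each array instead of the circRNA probes, it was -2.10 (SE 0.47, adjusted p = 0.0171). That scaling moved the median difference of all 55 probes from -1.75 to -0.43 and the split of calls from 31 lower and 2 higher in R to 5 lower and 6 higher. With dim values raised to the lowest signal well above background on their array, a setting added after seeing the data, the difference was -2.37 (adjusted p = 0.0206). The call ended with slide as a block (-3.43, adjusted p = 0.0651), with normexp background correction (-0.87, adjusted p = 0.0686) and without R rat 2 (adjusted p = 0.0616), WKY rat 2 (adjusted p = 0.0816) or WKY rat 3 (adjusted p = 0.0651), with fitted differences of -3.43 to -3.01 in these omissions.

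Napepld did not pass in R vs WKY. The log2 difference was -1.11 (SE 0.69, limma adjusted p = 0.184), although all R rats lay below all WKY rats. Scaled to the median of the mRNA probes the sign turned, at 0.22 (SE 0.70, adjusted p = 0.773). Within slide 1 it was -0.96 (SE 0.83, adjusted p = 0.35). In the ranking of the 55 differences from the lowest, Pld1 stood at 5 and Napepld at 34. Without S rat 2, which enters only through the shared spread, the Napepld difference passed at -1.11 (adjusted p = 0.046).

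In S vs SHR, the hypertensive models, both probes were lower in S, among the 40% of the 55 mRNA probes called lower there. Napepld had a fitted log2 difference of -2.10 (SE 0.69, limma adjusted p = 0.0359), with 1 of 3 S arrays and all SHR arrays well above background. The values of S rats 1 and 3 are bounds, so no fold is given. Every S rat lay below every SHR rat, which was so for 23.6% of the probes. The margin was narrow, with S rat 2 at -1.72 and SHR rat 2 at -1.68. Pld1 was well above background on 0 of 3 S and 2 of 3 SHR arrays. SHR rat 2 was at background as well, so no fold is given for Pld1 either. The fitted Pld1 difference of -1.92 (SE 0.71, limma adjusted p = 0.0485) lay just under the threshold of 0.05. The strains overlapped, since SHR rat 2 at -5.54 fell among the S values. The median log2 difference over all 55 probes was -1.53, with 44 below 0. The strain means compared here share no array with those of R vs WKY. Both comparisons use a spread shared over all 12 arrays, so they are not independent tests. The comparisons that follow reuse arrays of both.

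These calls rested on single arrays and on the scaling. Scaled to the median of the mRNA probes, the S vs SHR difference was -1.03 for Napepld (SE 0.70, limma adjusted p = 0.246) and -0.85 for Pld1 (SE 0.47, adjusted p = 0.177), the median over all probes -0.46, and the split of calls 8 lower and 8 higher in S, against 22 and 1. With normexp they were -0.38 (adjusted p = 0.433) and -0.12 (adjusted p = 0.86), and with dim values raised -1.49 (adjusted p = 0.0675) and -0.58 (adjusted p = 0.536). No slide held both strains, so no within-slide value exists. A fit with a slide term, in which WKY alone links the slides, gave -1.66 (SE 1.30) and -1.94 (SE 1.35), both with adjusted p = 0.523. The Napepld call ended without any one of S rats 1 and 3, R rat 1, WKY rats 2 and 3 and SHR rats 1 and 3, at differences of -2.10 to -1.45 and adjusted p of 0.0507 to 0.133. The Pld1 call ended in 10 of 12 omissions, all but those of WKY rat 1 and SHR rat 2, at -2.18 to -1.33 and adjusted p of 0.0552 to 0.224. SHR rat 2 was the only SHR array with Pld1 at background. Without it the Pld1 difference was -2.85 (SE 0.48, limma adjusted p = 0.000334), with every S value still at background.

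**Figure D3:**
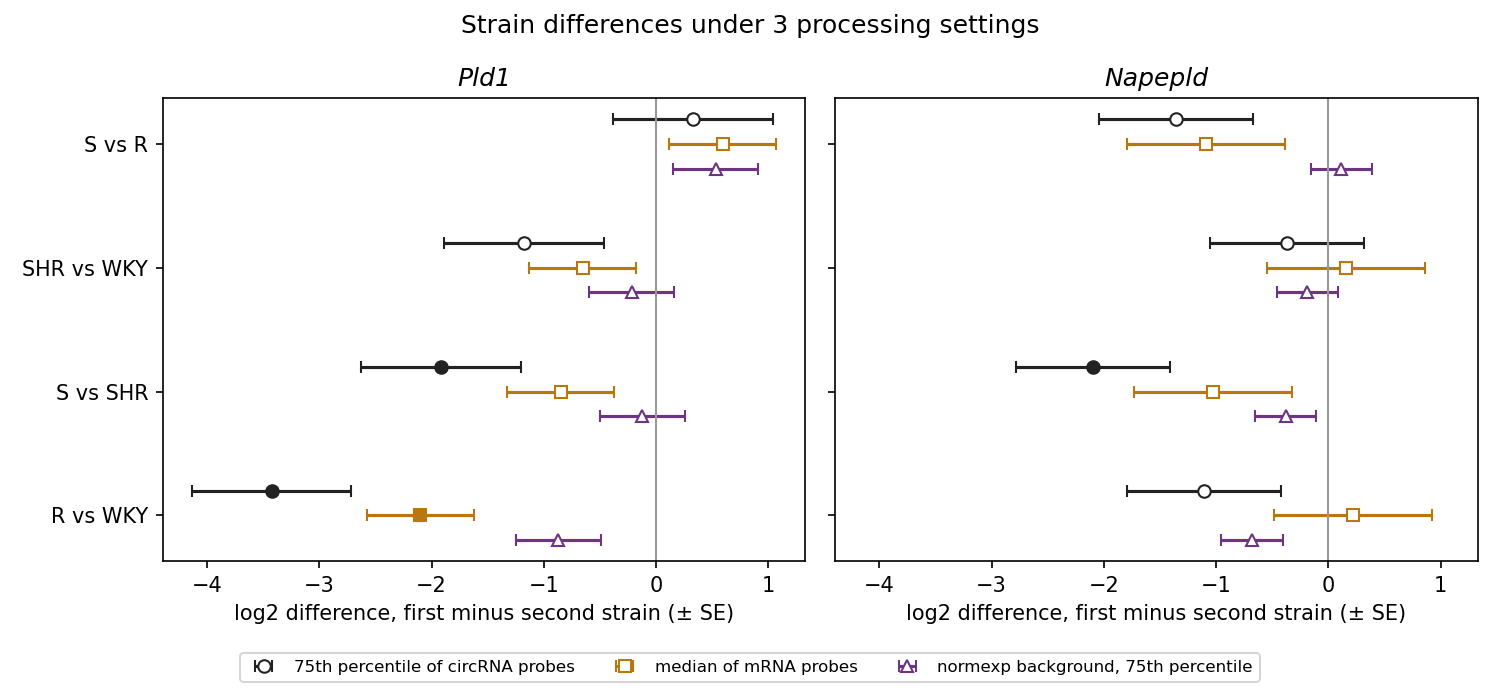
Fitted log2 difference between strains (x axis, first minus second strain, bars ± SE) for the 4 comparisons (y axis) under 3 settings, with filled symbols for an adjusted p under 0.05. Pld1 in R vs WKY is filled at -3.43 and, on the mRNA-median scale, at -2.10, while no symbol is filled with normexp. Pld1 values that involve S or R rest on arrays where it was not well above background.

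S vs R, the Dahl pair, gave no call. For Napepld the log2 difference was -1.36 (SE 0.69, limma adjusted p = 0.651), with S rats 1 and 3 below and S rat 2 within the R range. With normexp the sign turned, at 0.11 (SE 0.27). Without S rat 2 the Napepld difference was -2.28 (SE 0.48, limma adjusted p = 0.0397), the only 1 of 12 omissions that gave a call. Napepld was then lower in S by an approximate bound of 2.60-fold, with neither remaining array well above background. These remaining arrays, S rats 1 and 3, had the weakest detection of the 12. They had 30 and 39 of 62 mRNA probes well above background, against 51 on S rat 2. The part of array signal in this difference was not tested. Pld1 has no fold here, since no array of either strain was well above background. Over the 55 probes 0% were called (0 at an adjusted p under 0.05 by limma, 3 at an unadjusted p under 0.05), and 14.5% did not overlap between the strains.

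SHR vs WKY, the spontaneously hypertensive strain and its counterpart, gave no call either. Pld1 had a log2 difference of -1.18 (SE 0.71, limma adjusted p = 0.777), and -0.25 (SE 0.48, adjusted p = 0.992) without SHR rat 2. Napepld had a difference of -0.37 (SE 0.69, adjusted p = 0.79), or 0.16 on the mRNA-median scale. Its SHR and WKY values did not overlap, by the margin between -1.36 in SHR rat 1 and -1.27 in WKY rat 2, and it was the single probe of the 55 (1.82%) with SHR wholly below WKY. On slide 2 alone, with WKY represented by rat 3, whose spread is taken to be that of the SHR arrays, the differences were -1.16 (SE 1.47) for Pld1 and -0.66 (SE 0.93) for Napepld, both with adjusted p = 0.907. Over the probes 0% were called by limma, and 0 had an unadjusted p under 0.05.

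Whether S minus R differed from SHR minus WKY was tested as an interaction. For Napepld the difference of differences was -0.99 (SE 0.97, limma adjusted p = 0.989), with 2 of the S values at background. For Pld1 none is given, since no S or R array was well above background. Again 0% of probes were called, and 2 had an unadjusted p under 0.05.

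Over the 4 strains together both probes passed. Pld1 entered this test only through WKY, the strain where it was high, and was at background on 7 arrays. The limma moderated F was 10.4 for Pld1 (adjusted p = 0.0145) and 5.02 for Napepld (adjusted p = 0.0361), and 58.2% of the 55 probes passed the same test. An exact permutation test of the one-way F over all 15400 ways to divide the 12 arrays into groups of 3 gave p = 0.0145 for Pld1 and p = 0.024 for Napepld. On the mRNA-median scale the F was 7.59 for Pld1 (limma adjusted p = 0.0244) and 1.05 for Napepld (adjusted p = 0.465), so only the Pld1 call held there. The Napepld call also ended without any one of S rats 1 and 3, R rat 1, WKY rats 1 to 3 and SHR rat 3, at adjusted p of 0.05 to 0.121, and with normexp (F of 2.73, adjusted p = 0.172), with dim values raised (4.21, adjusted p = 0.0659), with slide as a block (3.05, adjusted p = 0.148) and in a joint fit with the circRNA probes (5.84, adjusted p = 0.0586). The Pld1 call held in all 12 omissions, with a highest adjusted p of 0.0485. It ended with normexp (F of 1.91, adjusted p = 0.301), with dim values raised (4.10, adjusted p = 0.0659) and with slide as a block (6.79, adjusted p = 0.0951).

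In the order of the strain means on the circRNA-percentile scale, WKY came first and SHR second for both probes, by differences that did not pass. On the mRNA-median scale this held for Pld1 and not for Napepld. Its means there were -0.07 in R, -0.13 in SHR, -0.29 in WKY and -1.16 in S. For Pld1, WKY and SHR overlapped, and so did SHR and S. S and R were not told apart because both held only bounds. R lay wholly below SHR by value, as for 20% of the probes, but SHR rat 2 and the R rats were all at background and have no order. Against WKY, Pld1 was lower in S by an approximate bound of 2.98-fold. Its S values lay wholly below WKY, as for 69.1% of the probes. For Napepld the neighbours SHR and R overlapped, and so did R and S. Exact two-sided permutation tests of the 6 strain pairs gave p between 0.1 and 0.5 over both probes, 0.171 to 0.5 after Benjamini-Hochberg adjustment over the 12 tests, and 3 rats against 3 cannot give less than 0.1.

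The level of either probe was then set beside the general mRNA-probe level of each array. Pld1 was well above background on exactly the 5 arrays with a median mRNA-probe level of -1.35 to -0.08 (WKY rats 1 to 3, SHR rats 1 and 3), and on none of the 7 with -2.45 to -1.94. Napepld did not follow this split: S rat 2, R rats 1 to 3 and SHR rat 2, all at -2.44 to -1.94, had it well above background. The part of the general mRNA-probe level in the strain differences of Pld1 was not tested beyond the scaling given above. After that scaling Pld1 lay at -1.97, -1.40 and -1.70 in WKY and at -1.72, -3.35 and -1.97 in SHR, against -3.77 to -2.53 in S and -3.94 to -3.51 in R.

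**Figure D4:**
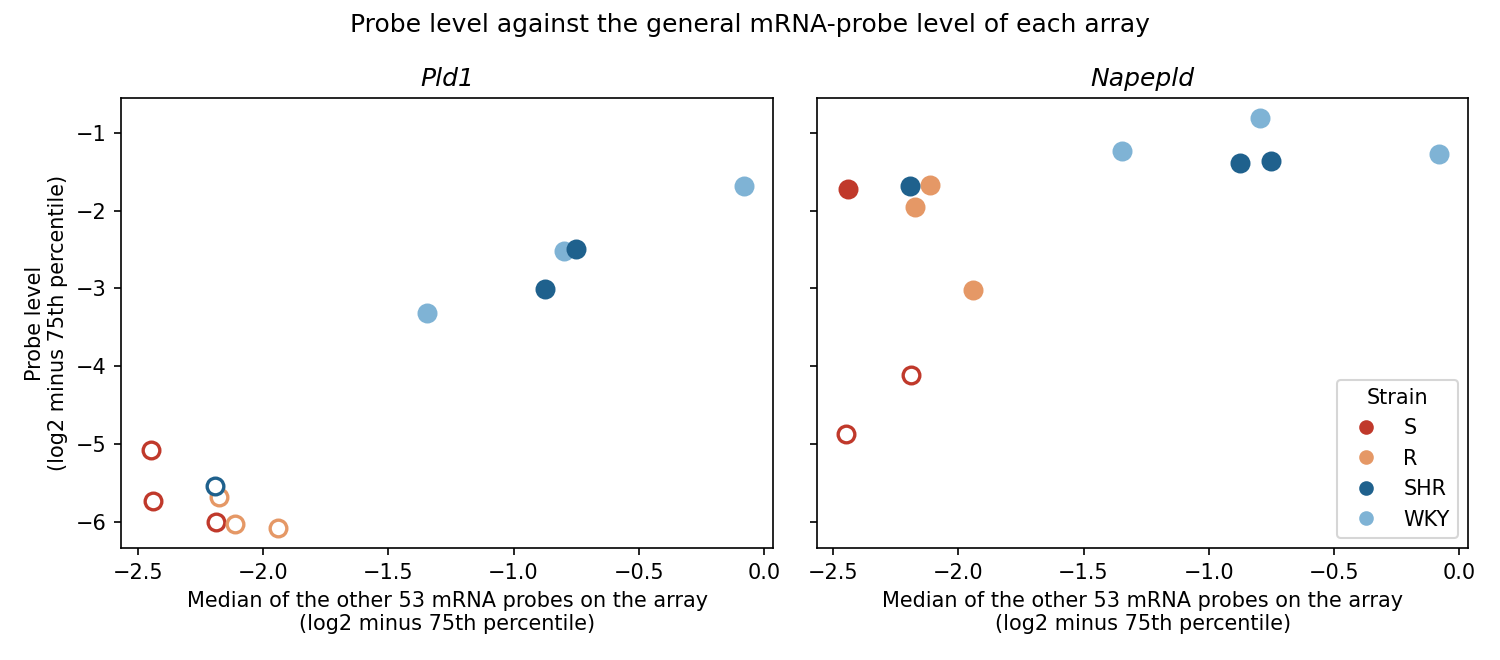
Level of Pld1 (left) and Napepld (right) on each array (y axis) against the median of the other 53 tested mRNA probes (x axis), both in log2 minus the 75th percentile of circRNA probes, coloured by strain. Filled circles are arrays where the probe was well above background. Pld1 is filled only on the 5 arrays at -1.35 to -0.08, and Napepld also on 5 arrays at -2.44 to -1.94.

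The log2 difference between the probes on the same array does not depend on the scaling, and its change between strains shows unequal change of the probes. Pld1 minus Napepld was -1.40 ± 0.88 (SD, n = 3) in WKY, -2.21 ± 1.45 in SHR, -3.72 ± 0.65 in R and -2.03 ± 1.90 in S. The difference of R minus WKY was -2.32 with no overlap, but its exact two-sided permutation p was 0.1, the smallest possible, and 0.4 after adjustment over 4 comparisons. Over the 4 strains the one-way F was 1.68 with an exact permutation p of 0.261. On the 7 arrays without Pld1 above background this difference is an upper bound on Pld1, and on S rats 1 and 3 neither probe was well above background. No correlation of Pld1 with Napepld is given, since both were well above background on only 5 arrays.

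The genes whose probes were most like each member over the 12 arrays were taken by Pearson's r among the named mRNA probes tested. For Pld1 these were Ndfip1 (r = 0.97), an adaptor of Nedd4-family ubiquitin ligases, Ldha (r = 0.97), a lactate dehydrogenase subunit, and Rpl13a (r = 0.97), a protein of the large ribosomal subunit. All were brightest in WKY, with means of 0.50 ± 0.43 (SD, n = 3) for Ndfip1, 1.30 ± 0.61 for Ldha and -0.36 ± 0.86 for Rpl13a against -1.06 ± 0.14, -0.49 ± 0.024 and -2.73 ± 0.32 in R. A lower mean in R than in WKY was the common state, found for 45 of the 55 tested probes, with 10 the other way. Further named probes were nearly as alike to Pld1, among them B2m and a second Ldha probe (r = 0.95 each). Since 7 of the 12 Pld1 values have no order, this likeness is mainly one of which arrays were high. On the mRNA-median scale the r was 0.57 for Ndfip1, 0.64 for the first Ldha probe, 0.89 for Rpl13a and 0.87 for the second Ldha probe.

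For Napepld the most alike were Nat1 (r = 0.92), an arylamine N-acetyltransferase, Pdk3 (r = 0.89), a kinase that restrains pyruvate dehydrogenase, and Pdcd10 (r = 0.86), a scaffold protein known from cerebral cavernous malformation. Like Napepld, Nat1, Pdk3 and Pdcd10 had their lowest mean in S, at -3.53 ± 1.21 (SD, n = 3), -1.93 ± 0.63 and -1.63 ± 0.94. Their highest mean was in WKY, at -1.02 ± 0.52, 0.057 ± 0.47 and 1.20 ± 0.65. The r was 0.87, 0.84 and 0.69 on the mRNA-median scale. No gene stood in both lists. All of these points share the array, its depth and its digestion, and r is a description over 12 arrays.

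Of 45 other genes of the pathways, none has a named probe among the 62: neither the other phospholipase D family genes (Pld2 to Pld6 as listed), nor the N-acylethanolamine hydrolases Faah and Naaa, nor the cannabinoid receptors, nor the Arf and protein kinase C activators of Pld1. Their levels were not analysed here.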

How the data were processed

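Kidney RNA of 12 rats was read on 1-colour arrays. Per the file headers, Agilent Feature Extraction 11.0.1.1 produced the deposited signal intensity of every spot after subtracting background and removing spatial trends, and no normalization between arrays had been applied. Limma is named in the submitters' processing notes, with no step. The authors' deposited log2 value table has 12846 rows, all circRNA probes, and was not used because neither gene is in it.

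Control spots and spots with an outlier flag were left out. Log2 spots were averaged per probe, and the 75th percentile over circRNA probes was subtracted per array. Of 62 probes with an accession, 39 took a gene name (38 genes) from RefSeq's GRCr8 table by accession without version. A probe was tested if well above background, by more than 50% of its spots, on all 3 arrays of at least 1 strain, which left 55. The build in the array headers is another one, so of that table only names were used.

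All 12 arrays entered one linear model, a mean for each strain, in limma 3.58.1 (R 4.3.3), with p-values adjusted by Benjamini-Hochberg over the 55 probes within each contrast, threshold 0.05. The fit was tested on simulated data. Alternatives were other scalings, normexp (offset 50, on the median foreground since the files hold no mean), other spot averages, filters, probe sets, blocks, variance models, single slides, only the compared strains, and leaving out each rat. Raising dim values to the lowest well-above-background signal and keeping flagged spots were added after seeing the data. Genes named are the members, any of the pathway list with a probe, and the 3 named probes with the highest Pearson r to each member. The members, lists and tests were chosen with earlier results of these data known. The same rat numbers in different strains did not pair the samples.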

Additional observations from a re-analysis of the deposited data

How the results depend on the processing

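The 3 called differences, Pld1 and Napepld in S vs SHR and Pld1 in R vs WKY, kept their sign in every alternative that gave a value for them. Differences that were not called turned sign for Napepld in S vs R (0.11 with normexp) and in SHR vs WKY and R vs WKY (0.16 and 0.22 on the mRNA-median scale), and in the interaction (0.30 with normexp). The cause of the lost calls was not tested. The signal over background sets the limits: Pld1 is a bound on 7 arrays and Napepld on 2. Apart from the omissions of single rats, the differences and F values that follow are those that no longer passed the threshold.

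Scaling to the mRNA median gave S vs SHR differences of -1.03 for Napepld and -0.85 for Pld1, an F of 1.05 for Napepld and 11 probes called in R vs WKY. Median scaling gave -1.78 for Pld1 in S vs SHR. Normexp gave -0.38 (Napepld) and -0.12 (Pld1) in S vs SHR, -0.87 for Pld1 in R vs WKY, an F of 2.73 (Napepld) and 1.91 (Pld1), and 1 probe called in S vs SHR against 23. Raising dim values gave -1.49 and -0.58 in S vs SHR, an F of 4.21 and 4.10, and 9 probes called there. The log2 of the mean spot signal gave -1.90 for Pld1 in S vs SHR.

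Keeping flagged spots, the trend and robust variance, and the fit of circRNA and mRNA probes together left the Pld1 S vs SHR difference at -1.92 with limma adjusted p of 0.0516, 0.0501 and 0.0597, and the joint fit gave an F of 5.84 for Napepld and 2 probes called in R vs WKY against 33. With the replicate block, the Pld1 S vs SHR difference was -1.92 (limma adjusted p = 0.0766) and the Napepld F was 4.85 (adjusted p = 0.0576), both no longer called. Same-numbered rats had deviations correlated at -0.54 to 0.52, so the number does not pair them. Slide as a block gave -1.66 and -1.94 in S vs SHR, -3.43 for Pld1 in R vs WKY, an F of 3.05 (Napepld) and 6.79 (Pld1), and 0 probes called by limma in either comparison. With only S and SHR fitted the differences stayed at -2.10 and -1.92 and lost the call, and 0 probes were called. A filter on all 12 arrays, which neither gene passes, called 8 in S vs SHR and 18 in R vs WKY. The 35 tested probes with a gene name gave 15 and 16 when fitted alone, against 55 probes in the main fit.

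Leaving out each rat gave differences of -3.02 to -1.45 for Napepld and -2.85 to -1.33 for Pld1 in S vs SHR, and -3.83 to -3.01 for Pld1 and -1.38 to -0.70 for Napepld in R vs WKY. In S vs R Napepld ran from -2.28 to -0.71. The F ran from 2.95 to 19.0 for Napepld and 7.45 to 32.7 for Pld1. Called probes ran from 1 to 42 in S vs SHR, 0 to 36 in R vs WKY (0 without R rat 2, WKY rat 2 or WKY rat 3) and 0 to 1 in S vs R.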
